A study of Saccharomyces cerevisiae with 4 samples.

Results

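The loss of SIR2 was measured by setting the RNA levels of a budding yeast strain that lacks the gene against those of the wild type BY4742, across all measured genes of Saccharomyces cerevisiae. The series concerns silent chromatin near chromosome ends, and the comparison asks which RNA levels differ once Sir2 is missing. The log2 level in the deletion minus that in wild type was taken for each gene, and a gene at least 1 above or below 0, which is a 2-fold difference, was called higher or lower. Of 5449 genes, 79 or 1.45% were called higher and 77 or 1.41% lower, 156 or 2.86% in all. BY4742, a haploid laboratory strain, has the mating type alpha. The strains compared were this wild type and a SIR2 deletion built by replacing the gene through homologous recombination with KanMX, a drug resistance gene that wild type does not carry. Per the labels both were cultured in YPD, a rich glucose medium, in a volume of 5 ml at 30 °C and taken in exponential growth at an optical density of 0.7. SIR3 and SIR4 deletions, built with KanMX and grown in the same medium, give 2 further arrays, which are set beside the comparison. The number of clones or cultures behind an array is not given in the sources used here.

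Each strain had 1 array, so no difference has a replicate check and no test was run. Precision is limited by this number of arrays, and all deletions are set against the same wild-type array, so a value that is off on that array moves all of them together. Any effect of KanMX cannot be told apart from that of the deletion. The background level of an array, the 95th percentile of the probe sets for a different yeast on it, was 4.29 in wild type and 4.32 without SIR2, and 5334 and 5319 genes lay above it. None of the 1746 probe sets for the other yeast was called, and their largest difference was 0.888 in size. Markers of an alpha strain were high in wild type, with MF(ALPHA)1 at 13.23, while the 7 a-specific genes lay between 4.63 and 7.25. Of the genes deleted in BY4742, URA3 lay below background on both arrays and LYS2 at 4.32 in wild type and 4.17 without SIR2. LEU2, also deleted, lay above background at 6.68 and 6.43, as did HIS3, whose deletion is partial, at 11.41 and 11.54. As LEU2 shows, a level above background need not mean RNA of that gene, so folds that rest on a low level are less sure. None of 5 strain marker genes was called. The signal of 3 prime minus 5 prime control probes, a sign of RNA integrity, was lower in the SIR2 deletion than in wild type by 0.09 to 0.35 for all 7 control genes, and the part of this in the results was not tested.

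Sir2 is a deacetylase that removes acetyl groups from histones and consumes NAD as it does so. With Sir3 and Sir4 it spreads along nucleosomes at the silent mating loci HML and HMR and at chromosome ends, and it acts without Sir3 in the ribosomal DNA, as part of another complex. The silent loci hold unexpressed copies of the mating-type genes. A haploid cell that expresses both a1 and alpha2 forms the repressor normally found in diploids, which turns off haploid-specific genes and, through loss of alpha1, alpha-specific genes. Background of this kind is textbook knowledge on yeast and is not a result of these arrays.

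SIR2 lay at 9.96 in wild type and 3.68 without SIR2, with 10.34 and 9.81 without SIR3 and SIR4. The SIR2 deletion array alone was below background, and the level was at least 49.7-fold lower than in wild type. Around the deleted gene on chromosome IV, the 6 nearest measured genes on one side, from SIT4 to PRP11, differed by between -0.35 and 0.17. On the other side NAT1, next to SIR2, differed by 0.03, and PRM7 followed it. PRM7, a gene named for its regulation by pheromone, lay at 12.22 in wild type, 10.46 without SIR2, 12.15 without SIR3 and 12.61 without SIR4. It was low on the SIR2 deletion array alone, 3.39-fold below wild type, and a further probe set for PRM7 differed by -2.16. Beyond PRM7, its neighbour BSC1 lay below background on both arrays, and PUS9, GPR1 and SLM3 differed by between -0.20 and 0.08. Whether the PRM7 level follows from the change made at the nearby locus was not tested.

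The called genes were spread unevenly over sizes and levels. Among the 79 higher genes the median difference was 1.33, with 51 between 2-fold and 3-fold, 17 between 3-fold and 4-fold and 11 at 4-fold or more. Among the 77 lower genes the median was -1.75, with 34 between 2-fold and 3-fold, 15 between 3-fold and 4-fold and 28 at 4-fold or more. The lower genes held the longer tail, with 20 genes at 8-fold or more against 6 among the higher genes, or 4 with values raised to background. Raising values to background ended the call of 3 higher genes, PAU21, YOL166W-A and YGL258W-A, and of 2 lower genes, NDJ1 and LSO1. Over all genes the median was 0.00 and the central 90% ran from -0.60 to 0.61, and 89.5% of genes lay within 1.5-fold. Higher genes started from a median wild-type level of 7.80 and lower genes from 10.10, where the median of all genes was 10.03. Genes of low level were called more often: with the genes ranked by mean level into 4 equal bins, 5.87% were called in the lowest bin, 2.5% and 1.91% in the middle bins and 1.17% in the highest. The SD of the difference fell in the same order, from 0.75 to 0.33. Near the limit, GPP2, YOL162W and SDH1 were just inside at 1.01, 1.01 and 1.02, and NDI1, YJR149W and YNL092W just outside at 0.99, 0.99 and 0.98. On the lower side PRM5, YAR009C and MOD5 were inside, each at -1.01, and YBL005W-A, HUA2 and FAF1 outside at -0.996, -0.987 and -0.980.

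**Figure D1:**
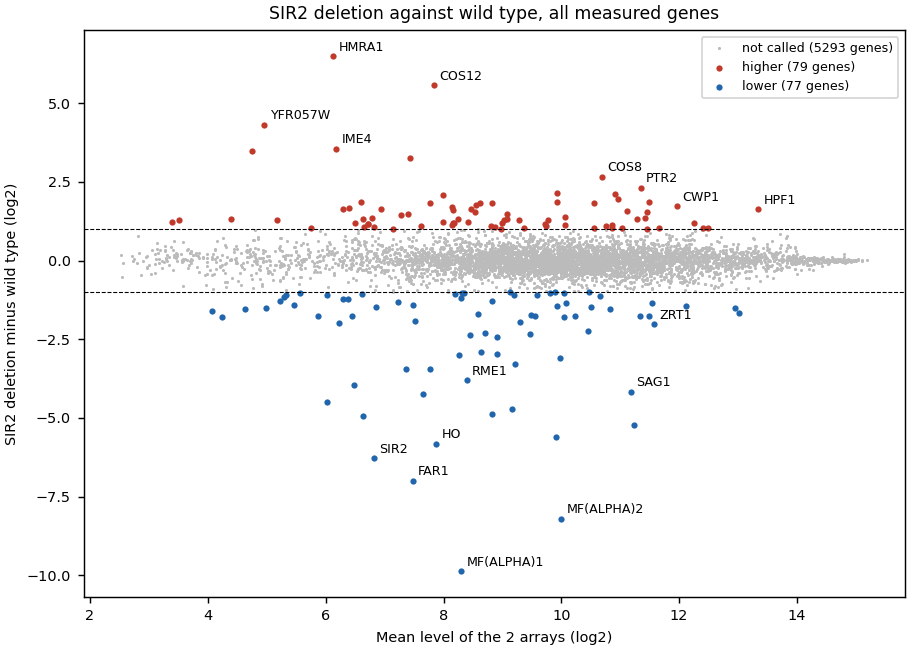
Each point is 1 of 5449 genes, with the mean log2 level of the SIR2 deletion and wild-type arrays on the x axis and the log2 difference on the y axis; dashed lines mark the 2-fold limits. The 79 higher genes and 77 lower genes are coloured, and the lower genes reach further from 0, to -8.21 for MF(ALPHA)2 against 5.58 for COS12 among genes above background on both arrays; points of genes below background on 1 array are drawn at their deposited values.

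At the silent mating loci, a gene of HMR was present in the SIR2 deletion and below background in wild type. HMRA1 encodes a1, the partner of alpha2 in the diploid repressor, and lay at 2.87 in wild type, 9.38 without SIR2, 9.01 without SIR3 and 9.80 without SIR4. It was low in wild type and high in every deletion, and at least 34.0-fold higher in the SIR2 deletion than in wild type. In RNA from a whole culture, fewer cells that express a gene and less RNA per cell cannot be told apart, here and below. The probe set for HMRA2, in the same locus, lay at 11.15 in wild type and 10.65 without SIR2, a difference of -0.50. The probe set named for HMLALPHA1, which encodes the activator alpha1, lay at 11.51 in wild type, 6.80 without SIR2, 6.58 without SIR3 and 6.91 without SIR4. Both HMRA2 and HMLALPHA1 are read by probe sets that match several sequences, and HML, HMR and MAT carry shared sequences, so neither value can be placed at a silent locus. YCL068C, the measured gene next to HMLALPHA1 on the side of the chromosome end, was 2.72-fold higher in the SIR2 deletion and also lies on a shared probe set.

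The alpha-specific genes, which alpha1 turns on, were all lower: 5 of 5, with a median of -5.62. Over all genes 1.41% were called lower and 1.45% higher. This list and the later ones were written with earlier results of these data known, so their counts carry no test. The alpha-factor gene MF(ALPHA)1 lay at 13.23 in wild type and at 3.36, 3.21 and 3.51 without SIR2, SIR3 and SIR4, all of them below background, so it was at least 480-fold lower in the SIR2 deletion. MF(ALPHA)2, the minor alpha-factor gene, lay at 14.10 in wild type and 5.89 without SIR2, 296-fold lower. The lower level is above background, which does not show that RNA of the gene was left. STE3, the receptor for a-factor, lay at 12.72 in wild type and at 7.10, 5.19 and 7.03 without SIR2, SIR3 and SIR4. Its SIR2 and SIR4 deletion levels were close together and the SIR3 deletion level lay below both. AFB1, an a-factor barrier gene, and SAG1, the alpha agglutinin, differed by -5.22 and -4.17. Of the 7 a-specific genes, such as the a-factor genes MFA1 and MFA2 and the alpha-factor receptor STE2, none was called, and their median was -0.14, from AGA2 at -0.68 and STE2 at -0.23 to STE6 at -0.06 and ASG7 at 0.07. Some of them lie near background.

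All 12 listed haploid-specific genes were lower, with a median of -3.44, beside 1.41% of all genes called lower. FAR1, which holds the cell cycle in G1 during mating, was lowest against wild type, at 10.97 there and at 3.98, 3.78 and 3.85 without SIR2, SIR3 and SIR4, at least 101-fold lower in the SIR2 deletion. HO, the endonuclease that starts mating-type switching, lay at 10.79 in wild type and 4.96, 4.75 and 4.95 in the deletions, 56.8-fold lower in the SIR2 deletion. The wild-type array stood above all 3 deletion arrays for both genes. The subunits of the pheromone G protein were all lower in the SIR2 deletion: GPA1, the alpha subunit, by -4.88 and STE4, the beta subunit, by -3.08. STE18, the gamma subunit, was below background in the deletion and at least 15.3-fold lower. STE4 lay at 11.52 in wild type and 8.44 without SIR2. Downstream, the scaffold STE5 was 8.02-fold lower and the kinase FUS3 was at least 27.5-fold lower, from 9.10 to 4.15. The remaining haploid-specific genes were RME1, a repressor of entry into meiosis, at -3.80, the protease gene AXL1 at -2.92, the recombination gene RDH54 at -2.34, the end-joining regulator NEJ1 at -2.29 and the mitotic exit inhibitor AMN1 at -1.45.

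Of 28 further genes of the pheromone response, 11 were lower, none was higher and 17 were not called, with a median of -0.68. Over all genes 1.41% were called lower. The 11 include PRM7, which was low on the SIR2 deletion array alone and lies near the deleted gene. FUS1, needed for cell fusion, lay at 9.76 in wild type and 5.53, 4.55 and 6.03 without SIR2, SIR3 and SIR4, 18.8-fold lower in the SIR2 deletion. SST2, which limits the pheromone signal by acting on Gpa1, lay at 10.85 in wild type and 7.58, 7.39 and 8.32 in the deletions, 9.69-fold lower in the SIR2 deletion. On both genes the SIR4 deletion kept the highest level of the deletions, and all 3 stayed below wild type. The agglutinin anchor AGA1 differed by -2.24, the fusion gene PRM1 by -1.76, the regulator of nuclear fusion genes KAR4 by -1.72 and the nuclear fusion gene KAR5 by -1.17. PRM5 differed by -1.01, and PRM6 was at least 2.11-fold lower, from 5.40 in wild type to a level below background. The transcription factors STE12 and TEC1 differed by -1.34 and -1.94. STE14, the enzyme that methylates a-factor and other prenylated proteins, lay outside this list and differed by -1.75. Of the genes not called, DIG1, FIG1 and PRM3 lay nearest to the limit at -0.83, -0.81 and -0.71, and FUS2 and PRM8 were highest at 0.42 and 0.34. In all, 24 of the 28 genes were below 0 and 4 above.

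Beside these genes lay a few others. ICS2 lay at 9.49 in wild type and 6.05 without SIR2 and is the measured neighbour of AMN1, which lay at 12.83 and 11.38. LIF1, an end-joining factor next to MF(ALPHA)2, differed by -1.21, and THI22, next to AXL1, by -1.10. Of 5430 adjacent pairs of measured genes, both were called in 12, 8 in the same direction and 4 in opposite directions. Over all genes 2.86% were called, and whether called genes cluster as neighbours was not tested. The pair YGR109W-A and YGR109W-B, both Ty entries, overlaps on the chromosome. Among the opposite pairs FUS1 at -4.23 stood beside HBN1 at 1.33, and TPO4, a polyamine exporter, at 1.85 beside MOD5, a tRNA modification enzyme, at -1.01. MHF2, a histone-fold protein of DNA repair, lay at 10.12 in wild type and 7.70, 8.08 and 7.66 without SIR2, SIR3 and SIR4, low in each deletion and 5.36-fold lower in the SIR2 deletion.

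IME4, the mRNA methyltransferase that acts at entry into meiosis, lay at 4.40 in wild type, 7.96 without SIR2, 8.06 without SIR3 and 8.12 without SIR4. It was near background in wild type and 11.8-fold higher in the SIR2 deletion. Most listed genes of meiosis were not called. Of 17 measured, IME4 was higher, HOP1, a chromosome axis protein, was lower at -1.16, and 15 were not called, with a median of -0.04. IME1, the master regulator of meiotic entry, lay at 7.77 in wild type and 8.69 without SIR2, a difference of 0.91 that missed the limit. Outside the list, the sporulation genes SPO19 and SPO1 differed by -1.21 and -1.11. NDJ1, which ties telomeres together in meiosis, lay at 4.88 in wild type and below background at 3.27 in the deletion, at least 1.47-fold lower.

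**Figure D2:**
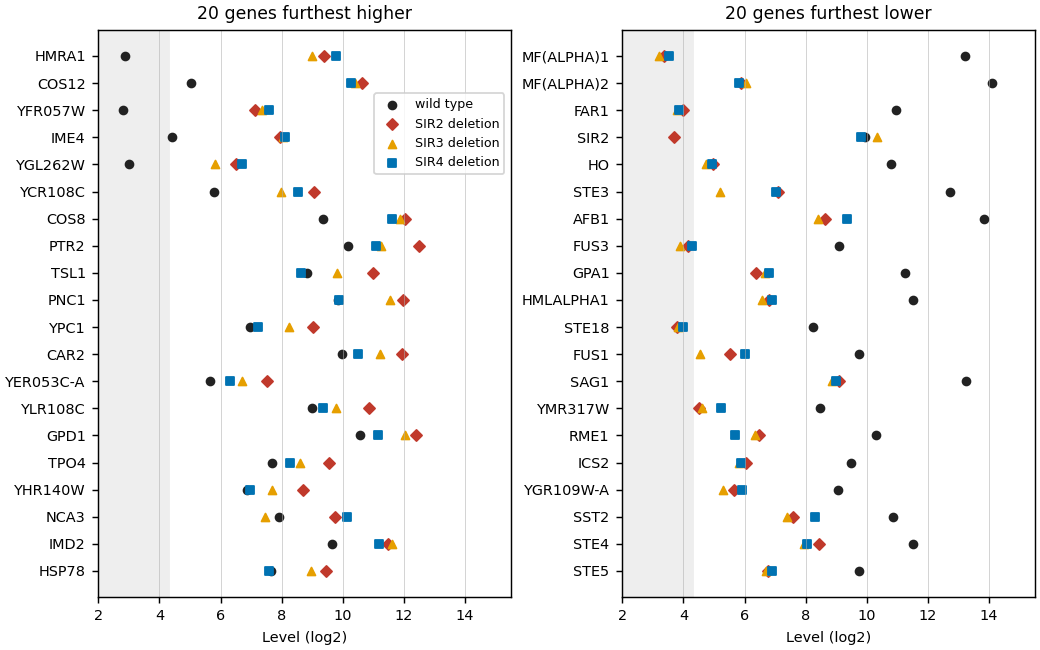
Log2 level on each of the 4 arrays, 1 point per array, for the 20 genes furthest higher (left) and the 20 furthest lower (right) in the SIR2 deletion against wild type; grey shading marks levels below the background. For the mating genes on the right all 3 deletions lie below wild type, while for SIR2 the SIR2 deletion stands alone at 3.68 and for TSL1, PNC1 and YPC1 on the left the SIR4 deletion lies within 0.29 of wild type.

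Genes near chromosome ends were called higher more often than genes elsewhere. Distances here come from the R64 reference table of RefSeq, since the deposited values carry no positions. At left ends they run from the first base. At right ends they run from the end of the last gene in that table, so they leave out any stretch beyond it. Within 10 kb of an end, 13 of 77 genes, or 16.9%, were higher and 1 was lower, and their median difference was 0.26. Between 10 and 20 kb 5 of 97, or 5.15%, were higher and 4 lower, and beyond 50 kb 55 of 4864, or 1.13%, were higher and 64, or 1.32%, lower. For the 174 genes within 20 kb this gives 18 higher, or 10.3%, and 5 lower, or 2.87%, against the 1.45% and 1.41% of all genes. The 5 lower include HMLALPHA1, whose value cannot be placed at the silent locus near this end. On probe sets that match a single sequence, 10 of 124 genes within 20 kb were higher. With values raised to background 15 of the 18 higher genes were still called. Not all 18 were higher in every deletion. HXK1 differed by -1.28 without SIR4, and YOL162W and THI13 differed by -0.26 and -0.10 without SIR3. The rest of the 18 lay above wild type in the SIR3 and SIR4 deletions too, by varying amounts, with ERR3 and YCL068C at 0.40 and 0.38 without SIR3.

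The higher genes were not at every end. Of 32 chromosome ends, 12 had at least 1 higher gene within 20 kb, 5 had several and 20 had none. The outermost measured gene was called higher at 8 of the 32 ends, and at the others it differed by between -0.32 and 0.89. Among the 8, YOL166W-A lay below background on both arrays, as did PAU21, the only higher gene at the right end of chromosome XV. Some outermost measured genes lay well inward, such as AAD10, AAD14 and HXT9 at 15.7, 16.1 and 19.5 kb, so these ends were not read further out. COS12, of a family of membrane protein genes that sort proteins for degradation, is the outermost gene of the left end of chromosome VII and lay at 5.04 in wild type, 10.62 without SIR2, 10.41 without SIR3 and 10.28 without SIR4. It was low in wild type alone and 47.9-fold higher in the SIR2 deletion. YGL262W, next to COS12, was below background in wild type at 2.99 and lay at 6.49, 5.83 and 6.70 without SIR2, SIR3 and SIR4, at least 4.60-fold higher in the SIR2 deletion. Further inward on this end YPS5 lay below background on both arrays, and VEL1 differed by 0.13. YGL258W-A, on the same stretch, was at least 1.69-fold higher, a bound under the limit, since its wild-type level was below background.

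At the right end of chromosome VI, YFR057W lay below background at 2.80 in wild type and at 7.12, 7.36 and 7.59 without SIR2, SIR3 and SIR4, at least 7.09-fold higher in the SIR2 deletion. Its neighbour IRC7, a cysteine desulfhydrase gene, differed by 0.62. At the right end of chromosome III, which leads to HMR, YCR108C lay at 5.79 in wild type and 9.05, 7.99 and 8.53 in the deletions, and it was 9.59-fold higher in the SIR2 deletion. From there inward AAD3 differed by 0.01, RDS1 by 0.03, ADH7 by 0.72, PAU3 by 0.75, YCR102C by 0.39 and YCR099C by 0.41, and YCR101C was below background on both arrays. GIT1, the permease for glycerophosphoinositol that borders HMR, lay at 6.14 in wild type and 7.29, 7.02 and 7.13 in the deletions. It was called in the SIR2 deletion at 1.15, and HMRA1 followed, at a bound of 5.09. No measured gene between YCR108C and GIT1 was called.

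Of 8 measured COS genes, 3 were higher, none was lower and the median was 0.87, beside 1.45% of all genes called higher. COS8 lay at 9.35 in wild type and 12.02, 11.89 and 11.60 without SIR2, SIR3 and SIR4, 6.38-fold higher in the SIR2 deletion, and COS7 lay at 8.42 and 9.73 in wild type and the SIR2 deletion. The other genes of the family were not called, with COS4, COS6, COS2 and COS9 at 0.98, 0.77, 0.70 and 0.40 and COS10 at -0.35. IMD2, an isoform of the enzyme that makes the guanine nucleotide precursor, lay at 9.65 in wild type and 11.47, 11.61 and 11.19 in the deletions, higher in every deletion than in wild type and 3.53-fold higher in the SIR2 deletion. The other isoforms IMD3 and IMD4 differed by -0.05 and 0.01, and none of the other 7 of 8 genes of guanine nucleotide synthesis was called. ERR3, an enolase-related gene, YER188C-A and DDI3, a cyanamide hydratase gene, were 2.52-fold, 3.14-fold and 3.09-fold higher. DDI3 is DDI2 in the array's annotation and has a near copy at another end, and COS7, IMD2, ERR3 and DDI3 all lie on probe sets shared between similar sequences, which leaves their places less sure. PAU21 and YOL166W-A were called at 1.29 and 1.23 but lay below background on both arrays, and no fold is given.

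**Figure D3:**
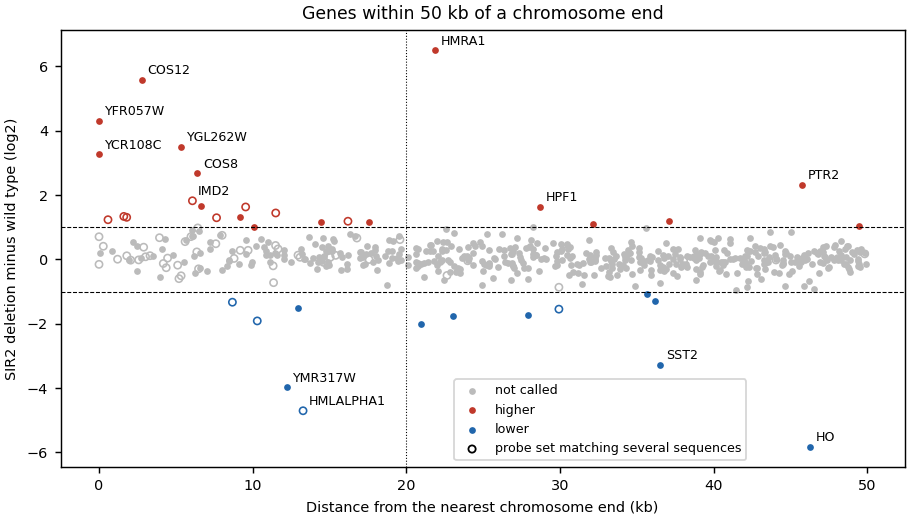
Log2 difference of the SIR2 deletion from wild type on the y axis against the distance of a gene from the nearest chromosome end in kb on the x axis. Right ends were taken at the last gene of the reference table. Open circles are probe sets that match several sequences and the dotted line marks 20 kb. Of the 174 genes left of the dotted line 18 lie above the upper dashed 2-fold limit, with COS12 at 5.58 and YCR108C at 3.26 among the outermost, and most points lie near 0.

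Genes that were lower also lay near ends, though fewer. YMR317W lay at 8.47 in wild type and 4.50, 4.62 and 5.24 without SIR2, SIR3 and SIR4, 15.6-fold lower in the SIR2 deletion. SNO3, a gene of vitamin B6 metabolism, and SOR2, a sorbitol dehydrogenase gene, differed by -1.91 and -1.33 on probe sets that match several sequences, and PHO89, a phosphate transporter, by -1.51. With HMLALPHA1 these are the 5 genes counted as lower within 20 kb. The HMLALPHA1 value cannot be placed at the silent locus, so it need not belong to a chromosome end. The 4 lower genes between 20 and 30 kb were ZRT1, KAR4, VBA2, a vacuolar amino acid transporter, and the Ty gene YBL100W-A, which differed by -2.02, -1.72, -1.77 and -1.55.

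The ribosomal DNA, where Sir2 also acts, was covered only by neighbouring genes and by control probe sets. None of 15 measured genes next to the ribosomal DNA was called, and they differed by between -0.38 and 0.89. The largest, YLR157W-E at 0.89 and YLR156W at 0.69, lie on shared probe sets. The 24 ribosomal RNA control probe sets had a median difference of -0.29, and 22 were below 0. Whether these control values follow silencing in the ribosomal DNA was not tested. The other silencing factors were close to wild type: of 34 genes that include SIR2, only SIR2 was called, RIF2, a telomere length regulator, was next lowest at -0.83, and the transcription factor ABF1 was highest at 0.43. The 10 histone genes lay between -0.53, for the centromeric histone CSE4, and 0.22.

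Beyond mating and chromosome ends, many of the higher genes were genes of metabolism and stress, at up to 5.01-fold for the peptide transporter PTR2. Most groups named in what follows also come from lists written with earlier results of these data known, so their counts carry no test. They are set beside the 1.45% of all genes called higher and the 1.41% called lower.

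Arginine metabolism differed in both directions. The biosynthetic genes ARG1, ARG3 and ARG4 were lower and the catabolic genes CAR1 and CAR2 higher. ARG1, argininosuccinate synthetase, lay at 12.37 in wild type, 10.60 without SIR2, 11.81 without SIR3 and 12.90 without SIR4. ARG3, ornithine carbamoyltransferase, lay at 9.43, 7.74, 8.38 and 9.55, and ARG4, argininosuccinate lyase, at 12.21, 10.86, 11.51 and 12.70, in the same order of strains. In all of them the SIR2 deletion was lowest, the SIR3 deletion next and the SIR4 deletion above wild type. The SIR2 deletion levels were 3.42-fold, 3.22-fold and 2.55-fold below wild type.

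CAR2, the aminotransferase that degrades ornithine, lay at 9.99 in wild type, 11.94 without SIR2, 11.22 without SIR3 and 10.48 without SIR4, 3.87-fold higher in the SIR2 deletion. CAR1, arginase, lay at 11.89, 12.92, 12.44 and 12.51, 2.05-fold higher. PTR2, the transporter of small peptides, was the highest of the nitrogen genes against wild type, at 10.18, 12.51, 11.26 and 11.09 in the same order, 5.01-fold higher in the SIR2 deletion. The SIR2 deletion was the highest array for CAR1, CAR2 and PTR2. In the list of 40 arginine and nitrogen genes these 3 were higher, the 3 ARG genes lower and 34 not called, with a median of 0.20. Of 49 genes of the synthesis and use of other amino acids, BAT2, a branched-chain aminotransferase, and ARO10, a decarboxylase of aromatic amino acid breakdown, were higher at 1.19 and 1.23, and 47 were not called, with a median of 0.15. The aminopeptidase genes APE1 and AAP1, outside these lists, were higher at 1.40 and 1.05.

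In NAD metabolism, from which Sir2 draws its cofactor, 2 of 18 genes were higher and none lower, with a median of 0.27. PNC1, the nicotinamidase that removes nicotinamide, an inhibitor of Sir2, lay at 9.85 in wild type, 11.96 without SIR2, 11.53 without SIR3 and 9.89 without SIR4. The SIR2 and SIR3 deletions were high and the SIR4 deletion was at the wild-type level, and PNC1 was 4.32-fold higher in the SIR2 deletion. BNA5, an enzyme of NAD synthesis from tryptophan, lay at 10.20, 11.31, 10.53 and 10.80, 2.16-fold higher. BNA3 and BNA4 of the same route differed by 0.79 and 0.66, and NPT1, which uses the product of Pnc1, by -0.04. The nicotinamide riboside kinase gene NRK1 was lowest at -0.54.

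Of 20 measured genes of trehalose and glycogen, the reserve carbohydrates, 4 were higher, none was lower and 16 were not called, with a median of 0.62 and 18 above 0. TSL1, a subunit of trehalose synthase, lay at 8.84 in wild type, 11.00 without SIR2, 9.82 without SIR3 and 8.64 without SIR4, 4.47-fold higher in the SIR2 deletion. TPS1, its catalytic subunit, and the glycogen synthases GSY1 and GSY2 differed by 1.02, 1.47 and 1.29. On all of them the SIR2 deletion was highest, the SIR3 deletion next and the SIR4 deletion within 0.21 of wild type. The list medians in the SIR3 and SIR4 deletions were 0.34 and -0.04.

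Of 28 chaperone genes 5 were higher and none lower, with a median of 0.39 and 26 above 0. HSP78, a mitochondrial disaggregase, lay at 7.66 in wild type, 9.44 without SIR2, 8.97 without SIR3 and 7.57 without SIR4, and HSP104, the cytosolic disaggregase, at 10.67, 12.23, 11.87 and 10.41. The small heat shock protein gene HSP42 differed by 1.61, the inducible Hsp90 gene HSP82 by 1.35 and its activator AHA1 by 1.04. In each of these 5 genes the SIR4 deletion lay below wild type, by 0.08 to 0.55. Of the chaperone genes not called, SIS1 was highest at 0.93, followed by STI1 at 0.80, and FES1 and SSB1 were lowest at -0.04 and -0.02. Of 28 general stress genes 5 were higher and 1 lower, with a median of 0.36. The 5 were HSP42, HSP78 and HSP104, already counted as chaperones, CYC7, also in the respiratory chain list, and GRE3. The other 22 were not called, among them HSP12 at 0.31, HSP26 at 0.18 and CTT1 at 0.64. DDR2, a gene of multiple stresses, was the lower one, at 8.19 in wild type and 6.77 without SIR2, and differed by -2.19 without SIR3 and -0.85 without SIR4.

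Several genes of glucose phosphorylation were higher, though not HXK2, the main hexokinase during growth on glucose, which lay at 14.18 in wild type and 14.27 without SIR2. GLK1, glucokinase, lay at 10.33 in wild type, 11.90 without SIR2, 10.94 without SIR3 and 9.69 without SIR4. HXK1, hexokinase, lay at 9.14, 10.31, 9.76 and 7.86, and EMI2, a glucokinase relative, at 9.12, 10.42, 9.74 and 9.02. The SIR2 deletion was the highest array for all of them and the SIR4 deletion the lowest. HXK1 is the member called in opposite directions in the SIR2 and SIR4 deletions, at 1.17 and -1.28. Of 16 genes of hexose phosphorylation and glucose repression, these genes and MTH1, a repressor in glucose sensing, were the 4 higher ones, none was lower and the median was 0.29. SKS1, a kinase of growth at low glucose, lay outside the list and was higher at 1.29. Of 9 hexose transporters HXT5 was lower at -1.46 and 8 were not called. Of 21 genes of glycolysis and fermentation, PYK2, a pyruvate kinase isoform, was higher at 1.24 and the median was 0.02. GPM2, a relative of phosphoglycerate mutase outside the glycolysis list, lay at 5.90, 7.10, 5.85 and 5.55 and was high on the SIR2 deletion array alone.

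In glycerol synthesis GPD1 and GPP2, the enzymes of the pathway's successive steps, were higher and the other 10 of 12 genes were not called. GPD1 lay at 10.55 in wild type, 12.41 without SIR2, 12.05 without SIR3 and 11.16 without SIR4, 3.62-fold higher in the SIR2 deletion. It is the chromosome neighbour of GPM2. The paralogues GPD2 and GPP1 differed by 0.24 and 0.03.

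Among 26 genes of the citric acid and glyoxylate cycles, the citrate synthases CIT1 and CIT2 and the succinate dehydrogenase SDH1 were higher, none was lower and the median was 0.44. CIT1, the mitochondrial enzyme, lay at 10.62 in wild type, 11.96 without SIR2, 11.73 without SIR3 and 10.83 without SIR4. CIT2, the peroxisomal enzyme, lay at 11.97, 13.01, 11.92 and 11.99 and was high on the SIR2 deletion array alone. Of 39 genes of the respiratory chain, CYT1, cytochrome c1, and CYC7, the minor cytochrome c, were higher at 1.13 and 1.67, none was lower, 35 were above 0 and the median was 0.23. The medians of this list in the SIR3 and SIR4 deletions were larger, at 0.40 and 0.29. Further mitochondrial genes outside these lists were MPC3, a pyruvate carrier subunit, at 1.70, STF1, a regulator of the ATP synthase, at 1.18, RGI1, a gene of respiratory growth, at 1.07, AIM17 at 1.55, FMP48 at 1.05, and SHH3, a relative of a succinate dehydrogenase subunit, at -1.78. Of 13 genes of acetaldehyde and acetate, ALD4, a mitochondrial aldehyde dehydrogenase, was higher at 1.05 and the median was 0.31. NCA3 lay at 7.90 in wild type, 9.73 without SIR2, 7.46 without SIR3 and 10.13 without SIR4, high in the SIR2 and SIR4 deletions and not in the SIR3 deletion.

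**Figure D4:**
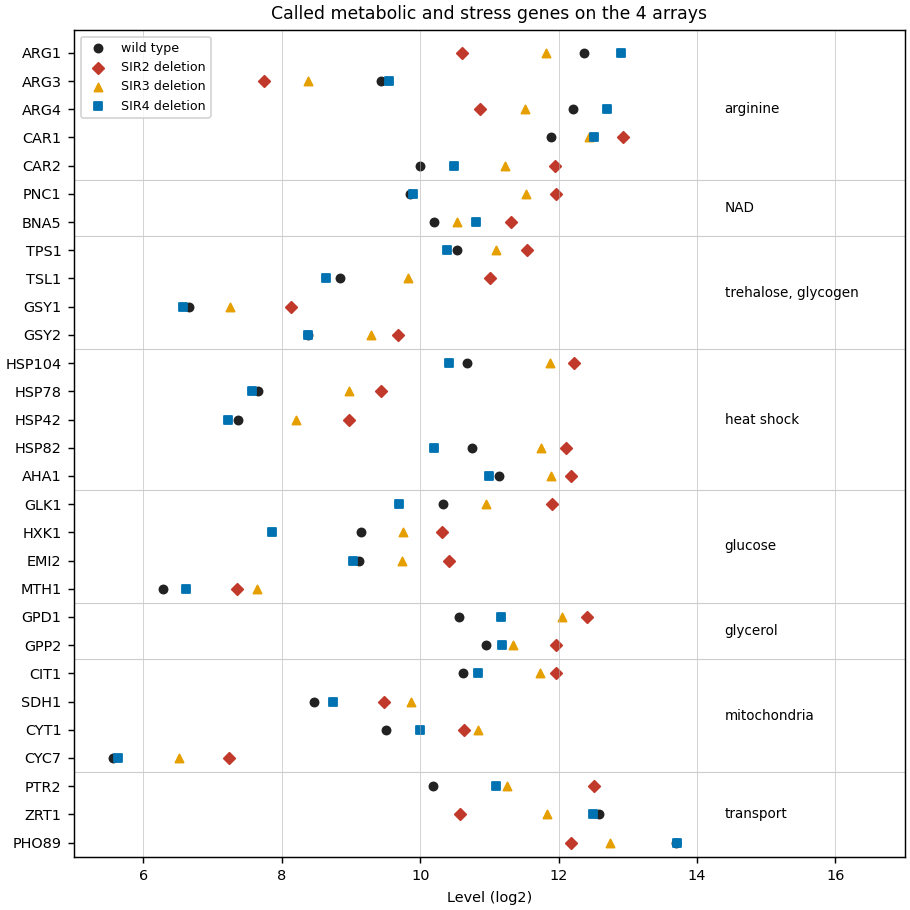
Log2 level on each of the 4 arrays, 1 point per array, for 29 called genes of metabolism, stress and transport, grouped by role. The SIR2 deletion lies furthest from wild type for most of them, the SIR3 deletion usually lies between, and the SIR4 deletion lies at or beyond the wild-type side for the ARG genes, trehalose and glycogen genes and heat shock genes, as for ARG1 with 12.37 in wild type, 10.60 without SIR2 and 12.90 without SIR4.

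Transporters and lipid genes went both ways. ZRT1, the high-affinity zinc transporter, lay at 12.59 in wild type, 10.57 without SIR2, 11.84 without SIR3 and 12.50 without SIR4, 4.05-fold lower in the SIR2 deletion. It was the lower one of 18 copper and zinc genes, of which 17 were not called, with its activator ZAP1 at -0.60 and the zinc-related membrane protein genes IZH1 and IZH2 at -0.96 and -0.91. IZH4, of the same family and listed with fatty acid genes, was lower at -1.78. PHO89 lay at 13.70, 12.18, 12.74 and 13.71, again lowest in the SIR2 deletion and at the wild-type level in the SIR4 deletion. In the list of 19 phosphate genes PHO89 was lower, GIT1 higher and the median -0.09.

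YPC1, a ceramidase, lay at 6.95 in wild type, 9.04 without SIR2, 8.24 without SIR3 and 7.24 without SIR4, 4.25-fold higher in the SIR2 deletion. RSB1, which acts in the export of sphingoid bases, lay at 8.33, 9.83, 7.78 and 8.47. The SIR2 deletion stood 1.36 above every other array for RSB1, the widest such gap among the higher genes, followed by PTR2 at 1.25, GPM2 at 1.20, TSL1 at 1.18 and TMA10, a stress-induced ribosome-associated protein gene, at 1.17. Below every other array the widest gaps were those of SIR2 itself, PRM7 at 1.69, YNL034W at 1.30, SET6 at 1.28 and ZRT1 at 1.27. For YNL034W a further probe set differed by only -0.40. The SIR2 deletion was the highest of the 4 arrays for 64 of the 79 higher genes and the lowest for 34 of the 77 lower genes, where the choice of members on this array favours such counts.

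HPF1 and CWP1, which encode mannoproteins of the cell wall, were higher in each deletion. HPF1 lay at 12.52 in wild type and 14.16, 14.41 and 13.69 without SIR2, SIR3 and SIR4, and was 3.12-fold higher in the SIR2 deletion. CWP1 lay at 11.09, 12.83, 13.10 and 12.14. They were the 2 higher genes among 35 of the cell wall, where none was lower and the median was 0.00. TIR4, a mannoprotein gene of anaerobic growth that was listed with the PAU family and not with these 35, was lower at -1.02.

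In the vitamin B6 pathway, SNO1 lay at 7.22 in wild type and 5.24, 4.81 and 6.28 without SIR2, SIR3 and SIR4, low in all deletions and least so in the SIR4 deletion. SNZ1, its partner gene, differed by -0.87 and was not called. THI13, a thiamine precursor gene on a shared probe set, was higher at 1.19. Of 19 genes of both vitamins 1 was higher and 3 lower.

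Of the list of Ty retrotransposon genes 3 were measured under a listed name. YAR010C and YAR009C were lower, and YBL005W-A at -0.996 missed the limit. Another 4 Ty genes were picked out because they were called, so they give no share of the Ty genes measured. All but YGR109W-B of the called ones lie on probe sets that match several sequences, and single elements are not told apart. YGR109W-A, of a Ty3 element, lay at 9.07 in wild type and 5.64, 5.28 and 5.92 without SIR2, SIR3 and SIR4, 10.8-fold lower in the SIR2 deletion. That size was not shared by YGR109W-B, which overlaps it and starts at the same base. On its probe set, which matches a single sequence, YGR109W-B differed by only -1.03. YAR010C lay at 13.85, 12.19, 11.75 and 12.26, and YBL100W-A, YDR261C-D and YAR009C differed by -1.55, -1.45 and -1.01. On each of these all deletions lay below wild type.

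Ribosome biogenesis differed weakly but with 1 sign over its list. None of 38 genes was called, yet all 38 were below 0, with a median of -0.38 and EBP2 lowest at -0.94 and MAK16 next at -0.75. Outside this list SRD1, a gene of pre-rRNA processing, lay at 10.39 in wild type and 7.44, 7.58 and 9.77 without SIR2, SIR3 and SIR4, and CGR1 and RSA1, which act in ribosome and snoRNP assembly, were lower at -1.14 and -1.06. The 29 ribosomal protein genes measured differed by at most 0.083 in size, with a median of 0.00. No gene was called among 26 of iron uptake, 26 of sulphur and methionine, 19 of purine synthesis, 13 of the pentose phosphate pathway, 32 of oxidative stress or 28 of ergosterol synthesis and uptake. Their medians were -0.13, 0.08, -0.11, 0.32, 0.20 and 0.14.

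**Figure D5:**
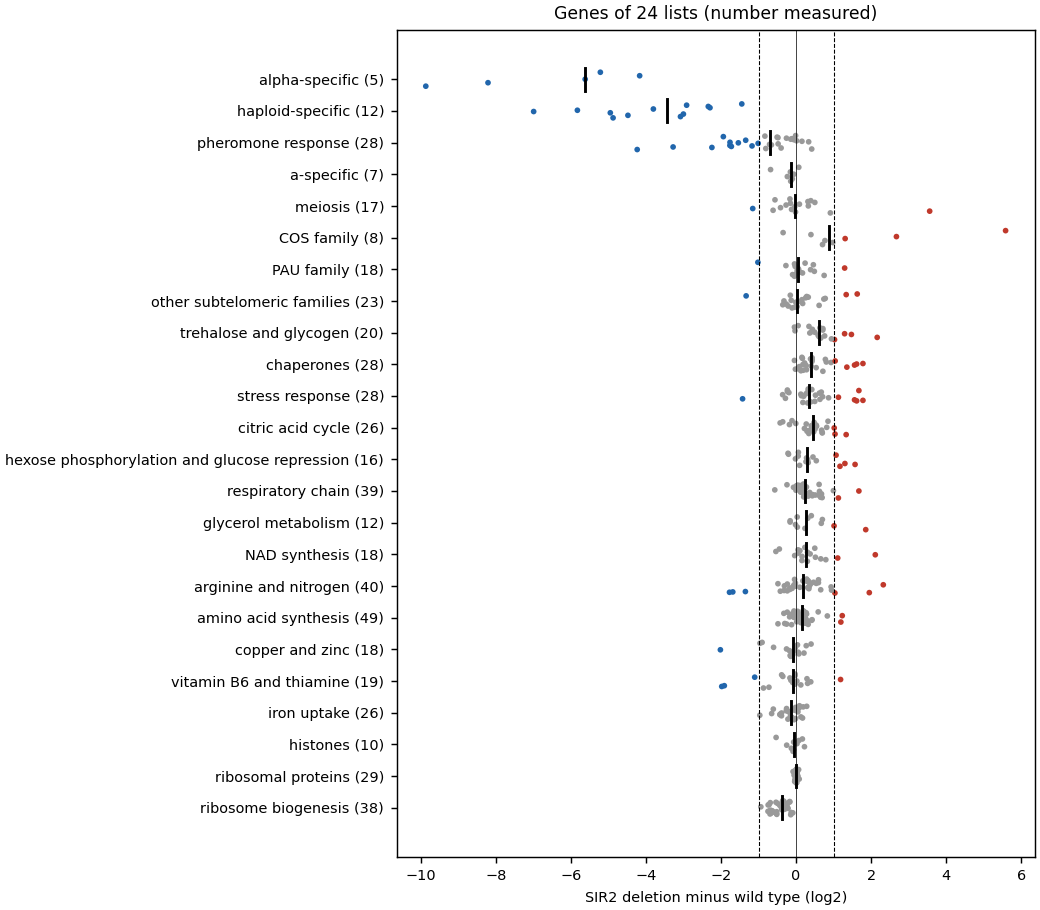
Each point is 1 measured gene of 24 gene lists, with the log2 difference of the SIR2 deletion from wild type on the x axis; black bars are list medians, dashed lines the 2-fold limits and coloured points called genes. The alpha-specific and haploid-specific lists lie wholly on the lower side with medians of -5.62 and -3.44, trehalose and glycogen genes lie mostly on the higher side with a median of 0.62, and ribosomal protein genes sit at 0.00.

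Of the members, 22 carry no standard name in the annotation, 15 of them higher and 7 lower. Away from the chromosome ends the highest were YER053C-A, YLR108C and YHR140W, at 1.88, 1.86 and 1.84. YER053C-A lay at 5.66 in wild type and 7.53, 6.70 and 6.30 without SIR2, SIR3 and SIR4 and YHR140W at 6.86, 8.70, 7.68 and 6.98. YLR108C lay at 10.86 without SIR2 and differed by 0.77 and 0.35 without SIR3 and SIR4. On each of these the SIR2 deletion was highest and the SIR3 deletion next. YDR034C-A, at 5.48, 7.11, 7.14 and 6.75, was high in all deletions. Among the lower ones YCL021W-A lay at 9.63, 7.28, 7.37 and 8.91, lowest in the SIR2 and SIR3 deletions. YNR014W, YJL213W and YHR022C-A were just above the limit, at 1.13, 1.09 and 1.03. YNL040W, YNL018C and YKL070W were lower at -1.46, -1.08 and -1.02, and YLR031W lay below background in the deletion, at least 2.69-fold under wild type.

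The remaining named members were few per role. Higher were the aldose reductase gene GRE3 at 1.13, the quinone oxidoreductase gene ZTA1 at 1.04, the glyoxylate reductase gene GOR1 at 1.20, the Ran GTPase gene GSP2 at 1.10, ULA1 of the ubiquitin-like Rub1 pathway at 1.09, ATG39, an autophagy receptor of the nuclear envelope, at 1.29 and RTC3 at 1.37. Lower were TMT1, a methyltransferase of trans-aconitate, at -1.29, SET6 at -1.28, the cAMP phosphodiesterase gene PDE1 at -1.08, HES1, an oxysterol-binding protein gene, at -1.06, MET31, a regulator of sulphur genes, at -1.03 and EFM6, a methyltransferase of an elongation factor, at -1.01. LSO1 was lower from 5.14 to a level below background, 3.34, at least 1.77-fold.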

How the data were processed

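Total RNA was measured on 4 Affymetrix arrays, 1 per strain, as biotin-labelled cRNA from 200 ng of RNA, per the labels' protocols. Each probe set had 1 deposited value per array on the log2 scale. The submitters' processing notes name RMA, which corrects background, makes the arrays' distributions alike and summarises probes, and they give no version here. A change common to all genes is therefore invisible in these values, which ran from 2.16 to 15.2.

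Of 10928 probe sets, 7244 had 1 gene symbol in the platform annotation. Matching by gene identifier to the R64 RefSeq table gave 5498 probe sets for 5449 genes, 5446 of them protein-coding, and 47 genes with several probe sets took the brightest. From the log2 levels, the difference from wild type and its fold were computed per gene with Python 3.11.15, pandas 2.3.3 and numpy 2.4.6, and drawn with matplotlib 3.10.9. Where 1 array was below background, values were raised to the background level and the fold written as at least that. Because probes respond differently, levels of single genes were not set against each other. Only the 2-fold calling rule was tried on simulated arrays. Their noise was smaller than the spread of the real differences, so this gives no rate of false calls.

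Genes were named by this rule: SIR2 and its 6 nearest measured genes on either side, the 20 largest differences each way, called members and the 2 extremes of each end of a list, the 3 genes nearest to the limit on either side in each direction, called genes within 20 kb of an end and the 5 genes farthest beyond all other arrays each way. The extremes are printed for some lists and not for all, and other members and uncalled genes were named after their values were seen, as were the groups they were put in. The members, lists and alternatives were chosen with earlier results of these data known. Grouping followed the sample labels.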

Additional observations from a re-analysis of the deposited data

Results flagged for a closer look

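HXK1 was called in opposite directions in different deletions against the same wild-type array, at 1.17 without SIR2 and -1.28 without SIR4. The difference between the deletions was not tested.

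A reporter probe set, which reads no yeast gene of the annotation, lay at 2.96 in wild type and at 14.59, 14.60 and 14.60 without SIR2, SIR3 and SIR4, a difference of 11.63 for the SIR2 deletion. Its sequence is not given in the sources used here. The deletions carry KanMX, and whether this probe set reads that gene was not tested.

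Among 3471 probe sets without a gene symbol that are neither controls nor reporters, 8 were at least 2-fold higher in the SIR2 deletion and 3 lower. The highest of them lay at 3.56 in wild type, below background, and at 6.55, 6.58 and 7.22 without SIR2, SIR3 and SIR4.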

How the results depend on the processing

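The counts of 79 higher and 77 lower genes moved with the fold limit, to 295 and 276 at 1.5-fold and to 28 and 43 at 3-fold. Under the other settings they lay between 73 and 88 and between 68 and 77, and the 18 higher genes within 20 kb became 13 at 10 kb, 20 at 30 kb and 17 among the outermost 8 genes of each end. Of the 156 members, 148 were still called with each array centred on its median, 151 with the quantile normalization repeated, 151 with values raised to background and 142 with values raised to the 99th percentile of the other yeast. Under that last setting NDJ1 and LSO1 turned to 0.16, the difference between the floors of both arrays, and PRM6 to 0.10, with the deletion array at its floor. The median of the hexose transporters went from 0.06 to -0.06 with the normalization repeated. Centring shifted the median of all genes by 0.04, the widest shift of the settings run. No paired analysis was possible because each strain had 1 array. The planned search for motifs was not run, since promoter sequences were not used here. Of 103 genes below background on both arrays 2 were called, and their differences have no usable fold.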
